A study of Mus musculus with 44 samples.

Results

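In cultured mouse cortical neurons, the responses to a pair of stimuli were compared directly: brain-derived neurotrophic factor (BDNF) and glutamate with glycine (glu/gly). The comparison used 6 of the 44 samples of the series, namely the RNA-seq, ribosome-profiling and TAIL-seq libraries of the culture treated with BDNF and those of the culture treated with glu/gly. They were chosen by their labels alone, and each culture had 1 library per assay. Both cultures were primary cells from the cortex of newborn mouse pups, kept for 14 days in vitro (DIV14) and stimulated for 30 min. Early in culture the cells were treated with 5 µM cytosine arabinoside, which kills dividing cells, and the medium was then exchanged. An unstimulated DIV14 culture of the same experiment entered no difference, and its levels are given as background. A DIV14 culture carrying a GFP lentivirus was set against the unstimulated culture to show how far apart 2 cultures without a stimulus lay. The methods of the study name 2 batches of 3 cultures each, with 2 litters per batch, but not which culture belonged to which batch, so stimulus, batch and litter cannot be told apart. Because no value had a replicate, no test between the conditions was possible, and each interval below covers counting error only.

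BDNF binds the receptor tyrosine kinase TrkB, which signals through Ras and MAP kinase, through PI3 kinase and through phospholipase C. Glutamate with its coagonist glycine opens NMDA receptors, and the calcium that enters activates calmodulin-dependent kinases, calcineurin and also MAP kinase. Both routes reach CREB, SRF and other factors that already sit at the promoters of immediate-early genes (IEGs), whose transcription starts within minutes and needs no new protein. Many IEGs encode transcription factors, such as Fos and Egr2, and others encode effectors at synapses, such as Arc.

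RNA-seq reads and ribosome-protected fragments (RPFs) were counted on coding sequences (CDSs), and TAIL-seq tags were counted at mRNA 3′ ends, each tag with the length of its poly(A) tail. After BDNF, 479526 RNA-seq reads, 3697441 RPFs and 1057812 tags fell on genes, and after glu/gly 601563, 2812215 and 799603. Levels are given as CPM, each library's counts on genes being the total. A gene was tested with 20 or more counts summed over both libraries, and called when it differed by 2-fold or more and the 95% Clopper-Pearson interval of its fold excluded 1. In RNA-seq, 114 of 8035 genes (1.42%) were called higher after BDNF and 148 (1.84%) higher after glu/gly, together 3.26%. The unstimulated and GFP cultures, which differed in no stimulus, gave 285 of 7750 (3.68%). In RPFs, 98 of 11167 genes (0.878%) were higher after BDNF and 76 (0.681%) after glu/gly, together 1.56%, against 4.85% between the unstimulated and GFP cultures. In tags, 59 of 8523 genes (0.692%) were higher after BDNF and 63 (0.739%) after glu/gly, together 1.43%, against 4.82%. The 2 stimulated cultures were thus no further apart in any of these counts than the 2 cultures without a stimulus. That pair was not alike apart from the stimulus, since only 1 of its cultures carried a lentivirus. Whether its cultures shared a batch or litter is not stated. The unstimulated culture had 1042761 tags on genes and the GFP culture 389654. Microglial markers summed to 22.1 and 2.03 CPM in their RPFs. The pair may therefore overstate how far 2 like cultures differ. Scaled to the deposited RPM instead, the split in RNA-seq was 76 higher after BDNF and 196 higher after glu/gly, and in RPFs 147 and 44. Across genes, the SD of the log2 difference was 0.479 in RNA-seq, 0.373 in RPFs and 0.400 in tags, compared with 0.515, 0.519 and 0.577 for the pair without a stimulus.

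The cultures were neuronal by their markers. All 10 neuronal markers were detected in every library, and their summed level after BDNF was 0.999 times (0.945 to 1.06) that after glu/gly in RNA-seq, 1.08 times (1.06 to 1.09) in RPFs and 1.06 times (1.03 to 1.09) in tags. Astrocyte markers were also present. Their summed RPF level was 2225 CPM after BDNF and 2721 after glu/gly, 0.818 times (0.793 to 0.844), and all 8 were lower after BDNF, whereas in RNA-seq the ratio was 0.974 (0.888 to 1.07) and in tags 0.971 (0.891 to 1.06). The 10 oligodendrocyte-lineage markers summed to 174.7 CPM in RPFs after BDNF and 200.9 after glu/gly. The 8 microglial markers summed to 19.2 and 16.4. The 10 endothelial and fibroblast markers had 56 RNA-seq reads after BDNF and 31 after glu/gly, a ratio of 2.27 (1.44 to 3.64), and the ratio was 1.07 (0.912 to 1.26) in RPFs and 1.74 (0.796 to 4.09) in tags. The part of these cell types in the differences below was not tested. Where a marker sum differs in reads or tags of such bulk samples, fewer cells of a type and less RNA per cell cannot be told apart. The astrocyte interval excluded 1 in RPFs only, and where that difference came from was not tested.

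In all, 3 mRNAs were called in all 3 assays, and all 3 were immediate-early mRNAs that were higher after BDNF: Egr2, Ier2 and Arc. No mRNA was called higher after glu/gly in all 3 assays. Egr2 (NM_010118, chr10:67537869-67542188 of GRCm38, plus strand, 2 exons) encodes a zinc-finger transcription factor. It was at 3.93 CPM in RNA-seq in the unstimulated culture, at 119 after BDNF and at 28.3 after glu/gly. The same order held for RPFs, with 19.1, 267 and 80.7 CPM, and for tags, with 32.6, 194 and 55.0. The fold of BDNF over glu/gly was 4.21 (2.41 to 7.71) from 57 and 17 reads, 3.31 (2.87 to 3.84) from 989 and 227 RPFs, and 3.52 (2.53 to 5.0) from 205 and 44 tags. The 3 intervals overlapped, and each lay above 2.

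Ier2 (NM_010499, chr8:84661331-84662852, minus strand, 1 exon) encodes a small nuclear protein. It had 35 reads after BDNF and 12 after glu/gly, a fold of 3.66 (1.85 to 7.74), with 2 reads in the unstimulated culture. Its RPFs numbered 648 and 197, a fold of 2.5 (2.13 to 2.95), and its tags 272 and 84, a fold of 2.45 (1.91 to 3.16). Arc (NM_018790, chr15:74669081-74672570, minus strand, 3 exons) encodes a protein of the postsynaptic density that takes part in AMPA-receptor endocytosis, and its mRNA travels into dendrites. It had 519 CPM in RNA-seq after BDNF, 194 after glu/gly and 19.7 without stimulation. In RPFs these levels were 866, 367 and 45.9 CPM, and in tags 364, 158 and 30.7. The folds were 2.67 (2.13 to 3.35) in RNA-seq, 2.36 (2.20 to 2.53) in RPFs and 2.31 (1.88 to 2.85) in tags. Thus Arc was between 2.31- and 2.67-fold higher after BDNF whichever assay was used, and after either stimulus it was far above the unstimulated level.

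**Figure D1:**
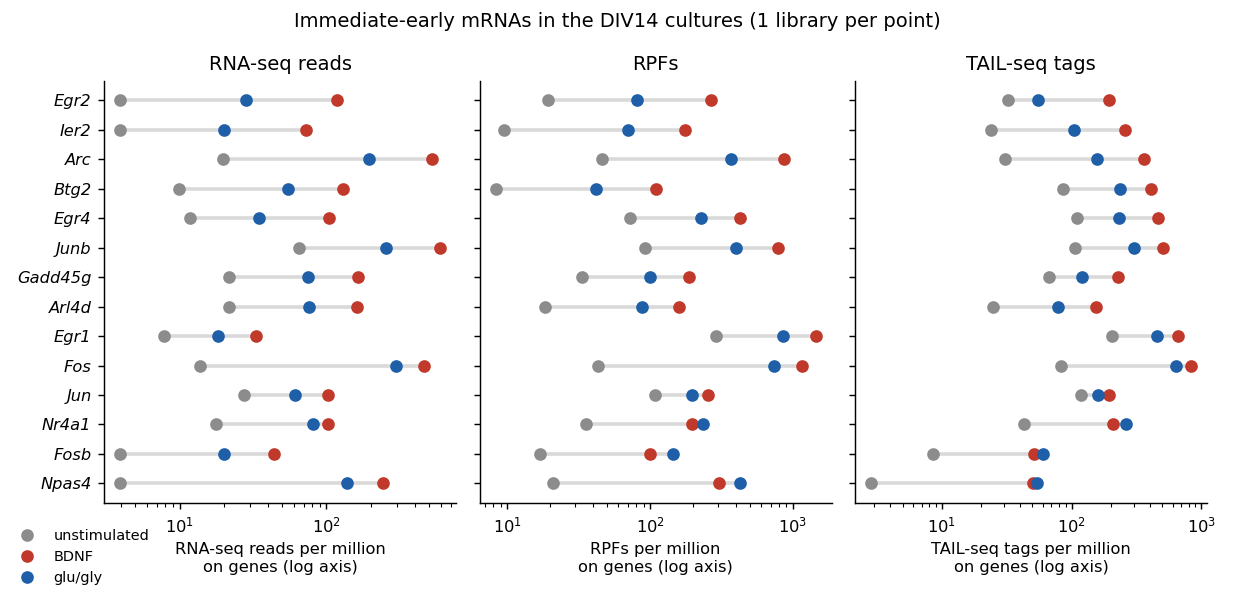
Levels of 14 immediate-early mRNAs in RNA-seq, RPFs and TAIL-seq tags, in CPM on log axes, with 1 point per library for the unstimulated (gray), BDNF (red) and glu/gly (blue) cultures and a gray line over their range. Egr2 lay at 119 and 28.3 CPM in RNA-seq after BDNF and glu/gly, whereas Npas4 and Fosb were higher after BDNF in RNA-seq and higher after glu/gly in RPFs.

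Most other IEGs were also higher after BDNF in RNA-seq. The list of IEGs used here was chosen with earlier results of these data known. Of 58 listed IEGs, 56 were in the files. In RNA-seq 33 were tested. Of them 11 were called higher after BDNF and none higher after glu/gly, compared with 1.42% and 1.84% of all genes. The log2 difference lay above 0 in 25, and its median was 0.65 compared with 0.03 for all genes. Of the transcription factors, 7 of 17 were called (Egr2, Ier2, Egr4, Junb, Bhlhe40, Fosb and Klf10), and of the effectors 4 of 16 (Arc, Btg2, Gadd45g and Arl4d). The calls of Fosb and Arl4d were lost with the deposited RPM and with centring within quartiles of CDS length. Junb, a partner of Fos in AP-1, had 284 reads after BDNF and 153 after glu/gly, a fold of 2.33 (1.91 to 2.85). Its 2912 and 1119 RPFs gave 1.98 (1.85 to 2.12), just under the threshold, and its 531 and 242 tags gave 1.66 (1.42 to 1.94). Btg2, an antiproliferative protein that recruits the deadenylase complex, had 62 and 33 reads, a fold of 2.36 (1.52 to 3.71), 409 and 117 RPFs, a fold of 2.66 (2.16 to 3.29), and 430 and 189 tags, a fold of 1.72 (1.45 to 2.05). Hence the difference in Btg2 was larger in RPFs than in tags, and their intervals did not overlap. In RPFs 51 IEGs were tested, and 4 were called higher after BDNF (Egr2, Btg2, Ier2 and Arc) and 1 higher after glu/gly (Zfp36), with a median of 0.28. In tags 43 were tested, 3 were called and all 3 were higher after BDNF, with a median of 0.22. Of all genes, 0.878% were called higher after BDNF in RPFs and 0.692% in tags.

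Most IEGs called in RNA-seq kept their direction in the other assays. Of the 11, 10 were also higher after BDNF in RPFs and 10 in tags, with median log2 differences of 0.91 in each. Fosb was the exception in RPFs. Fewer passed the threshold, with 4 of the 11 called in RPFs and 3 in tags, compared with 0.878% and 0.692% of all genes. Of the other 103 genes called higher after BDNF in RNA-seq, 46 of 102 tested (45.1%) were higher after BDNF in RPFs, compared with 48.3% of all genes, and 42 of 86 were in tags. In both assays their medians lay near 0, at -0.08 in RPFs and -0.02 in tags. Thus beyond the IEGs a call in RNA-seq gave little about the direction in the other assays. Among the 10 largest RNA-seq folds in favor of BDNF, only Egr2 and Ier2 were also called in RPFs, and Egr2, Ier2 and Dkc1 in tags. The rest rested on few reads. Jtb had 20 reads after BDNF and 6 after glu/gly, a fold of 4.18 (1.62 to 12.7), but 31 and 20 RPFs, a fold of 1.18 (0.651 to 2.18), and 112 and 100 tags. The remaining members of the 10 were Rftn2, Tnfrsf1a, Trmt12, Stx4a, Cib1 and Cenpt, with RNA-seq folds of 3.23 to 4.01 and RPF folds of 0.614 to 1.25.

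**Figure D2:**
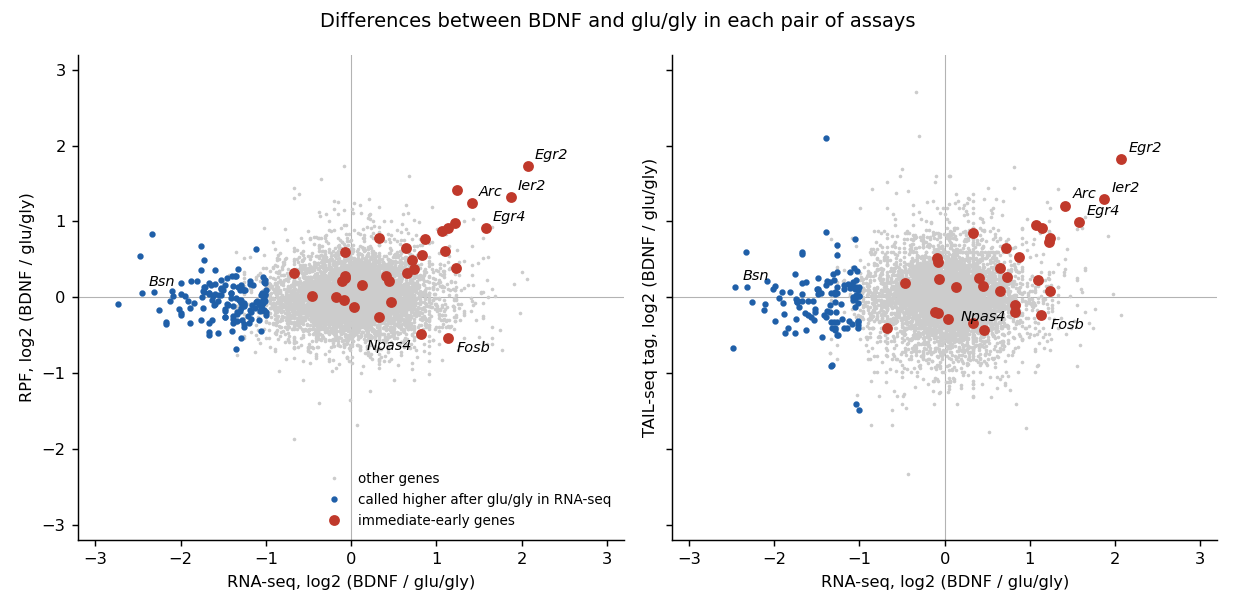
The log2 difference between BDNF and glu/gly for each gene in RNA-seq (x axes) against that in RPFs (left) and TAIL-seq tags (right), with immediate-early genes in red and genes called higher after glu/gly in RNA-seq in blue. Egr2, Ier2, Arc and Egr4 were above 0 on every axis, whereas the blue genes spread around 0 on both y axes, with medians of -0.05 in RPFs and -0.03 in tags.

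At higher counts the short list became shorter. With 100 or more tags summed, 3983 genes were tested, and Arc, Egr2 and Ier2 were the calls, with none in favor of glu/gly. With 100 or more RPFs summed, 8 of 7733 genes were called higher after BDNF. They were Arc, Btg2, Egr2, Ier2, Dnajb1, Gm13889, Phf20l1 and Snrpd1, and Lfng was the 1 gene higher after glu/gly (the names Gm13889, Phf20l1, Snrpd1 and Lfng were chosen after their values were seen). With 100 or more reads summed, 5 of 2840 genes were higher after BDNF (Arc, Junb, Gadd45g, Arl4d and Dnajb1) and 37 higher after glu/gly. Dnajb1, an HSP40 cochaperone, was the 1 of these 5 outside the IEG lists. It had 125 reads after BDNF and 58 after glu/gly, with 25 in the unstimulated culture, a fold of 2.70 (2.0 to 3.76). Its RPFs, 617 and 229, gave 2.05 (1.76 to 2.4), and its tags, 170 and 83, gave 1.55 (1.18 to 2.04). Among the other stress-response genes, Sesn2 was called higher after BDNF in RNA-seq from 20 and 11 reads, a call lost with the deposited RPM and with centring within quartiles of CDS length, and Hspa1b in RPFs from 21 and 2, a ratio of 7.99 with an interval of 1.95 to 70.3.

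Not all IEGs followed Egr2. Npas4 (NM_153553, chr19:4984354-4989971), a neuronal transcription factor, had 117 reads after BDNF and 83 after glu/gly, a fold of 1.77 (1.32 to 2.37). It had 2 reads without stimulation. Its RPFs ran the other way, with 1122 after BDNF and 1193 after glu/gly, a fold of 0.715 (0.659 to 0.777), and its 53 and 43 tags gave 0.932 (0.611 to 1.43). The RNA-seq and RPF intervals for Npas4 lay on opposite sides of 1. Fosb, another AP-1 subunit, showed the same arrangement, with 21 and 12 reads, a fold of 2.20 (1.03 to 4.89), but 369 and 407 RPFs, a fold of 0.690 (0.597 to 0.796). Nr4a1, an orphan nuclear receptor, had 49 reads in each culture, a fold of 1.25 (0.827 to 1.90), but its 724 and 663 RPFs gave 0.831 (0.746 to 0.924) and its 219 and 210 tags 0.788 (0.649 to 0.957). In RPFs and tags Nr4a1 was therefore slightly lower after BDNF. Its relative Nr4a2 had 30 and 43 RPFs, a fold of 0.531 (0.321 to 0.866), and Zfp36, which binds AU-rich elements and promotes mRNA decay, had 10 and 19, a fold of 0.400 (0.166 to 0.905). Fos lay between these extremes, with 222 and 178 reads, 4254 and 2072 RPFs, and 882 and 510 tags, which gave 1.56 (1.28 to 1.92), 1.56 (1.48 to 1.65) and 1.31 (1.17 to 1.46). Egr1 was at 1.70 (1.62 to 1.79) in RPFs and 1.44 (1.27 to 1.64) in tags. Accordingly, the ratio between the stimuli was not shared by all IEGs, and in RPFs it ran from 3.31 for Egr2 to 0.400 for Zfp36.

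The list of 19 MAPK feedback genes held mostly genes that restrain MAP kinase signaling, and also the transcription factors Etv1, Etv4 and Etv5. Of the 19, 10 were tested in RNA-seq, with a median log2 difference of 0.22. Dusp4 was called higher after BDNF from 15 and 7 reads, a fold of 2.69 (1.03 to 7.79), whereas its 208 and 142 RPFs gave 1.11 (0.896 to 1.39). The call of Dusp4 was lost in the same way as that of Sesn2. None of 18 was called in RPFs and none of 11 in tags, compared with 1.56% and 1.43% of all genes, and the medians were 0.15 and 0.23. Dusp1, a phosphatase of MAP kinases, had 596 RPFs after BDNF and 266 after glu/gly, a fold of 1.70 (1.47 to 1.98), and Dusp6, the ERK phosphatase, had 639 and 378, a fold of 1.29 (1.13 to 1.46). Of 13 SRF and actin cytoskeleton targets, 11 were tested in RNA-seq and none was called in any of the 3 counts. Actb had 1178 and 1370 reads, a fold of 1.08 (0.997 to 1.17).

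Of the receptors of the stimuli themselves, TrkB mRNA differed little. Ntrk2, which encodes TrkB, had 360 reads after BDNF and 457 after glu/gly, a fold of 0.988 (0.858 to 1.14), and 3429 and 2913 RPFs, a fold of 0.895 (0.852 to 0.941). Of 24 genes of BDNF signaling tested in RNA-seq, none was called higher after BDNF, and Rps6ka3, an ERK-activated kinase, and Sos1, an activator of Ras, were called higher after glu/gly. Neither was called in RPFs or tags. Of all genes, 1.84% were called higher after glu/gly in RNA-seq. Of 27 genes of glutamate receptors and calcium signaling, Grin2b, an NMDA-receptor subunit, was called higher after glu/gly in RNA-seq. It had 105 reads after BDNF and 323 after glu/gly, a fold of 2.45 (2.0 to 3.09) in favor of glu/gly, but 2434 and 2051 RPFs, a fold of 1.11 (1.04 to 1.18) in the same direction. The AMPA-receptor subunits Gria1 and Gria2 were at 0.824 (0.718 to 0.944) and 0.927 (0.840 to 1.02) in RNA-seq. Bdnf itself had 25 and 33 reads and 119 and 76 RPFs, at 0.95 (0.542 to 1.65) and 1.19 (0.886 to 1.61).

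To place these differences beside promoter sequence, the windows from 250 bases before to 50 after the annotated start were searched for the cAMP response element bound by CREB, TGACGTCA, for its core site TGACG, on both strands, and for the CArG box bound by SRF. Each full site also holds core sites. The table of RefSeq promoters for GRCm38.p6 had windows for 38 of the 56 IEGs. Arc, Ier2, Egr1, Bhlhe40 and Klf10 were among those without a window and were not searched. The full site was in 6 of them (15.8%), compared with 1.79% of all 32851 windows of that length. A core site was in 24 (63.2%) compared with 20.8%, and a CArG box in 3 (7.89%) compared with 1.63%. Of the 7 IEGs with a window that were called higher after BDNF in RNA-seq, 2 held a full site, 6 a core site and 1 a CArG box. Gadd45g held none of them. Such a match is a description of letters, and whether a factor bound there was not measured. The 200 bases before the start are shown for Egr2, Egr4, Btg2 and Arl4d, which were called higher after BDNF in RNA-seq, and for Npas4, which was not. Capitals mark core sites on either strand (TGACG or CGTCA), full sites and, in Egr2, the CArG box. The windows are chr10:67537669-67537868 (plus strand), chr6:85513590-85513789 (minus), chr1:134079156-134079355 (minus), chr11:101665341-101665540 (plus) and chr19:4989972-4990171 (minus), each printed 5′ to 3′ toward the start.
Egr2: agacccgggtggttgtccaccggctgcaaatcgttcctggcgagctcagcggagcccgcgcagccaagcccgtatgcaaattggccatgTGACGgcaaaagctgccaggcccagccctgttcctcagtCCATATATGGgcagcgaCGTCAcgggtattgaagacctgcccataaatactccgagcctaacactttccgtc
Egr4: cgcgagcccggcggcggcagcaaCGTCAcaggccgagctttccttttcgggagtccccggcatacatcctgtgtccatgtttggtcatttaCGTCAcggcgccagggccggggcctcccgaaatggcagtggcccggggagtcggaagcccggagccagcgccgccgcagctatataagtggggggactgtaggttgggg
Btg2: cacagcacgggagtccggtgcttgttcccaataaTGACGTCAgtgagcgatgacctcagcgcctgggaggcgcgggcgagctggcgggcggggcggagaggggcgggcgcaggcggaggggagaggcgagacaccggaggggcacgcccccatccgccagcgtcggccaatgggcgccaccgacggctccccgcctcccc
Arl4d: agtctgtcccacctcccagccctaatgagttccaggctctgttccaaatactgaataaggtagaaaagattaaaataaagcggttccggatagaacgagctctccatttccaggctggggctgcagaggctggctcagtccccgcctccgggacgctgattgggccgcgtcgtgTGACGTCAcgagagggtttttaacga
Npas4: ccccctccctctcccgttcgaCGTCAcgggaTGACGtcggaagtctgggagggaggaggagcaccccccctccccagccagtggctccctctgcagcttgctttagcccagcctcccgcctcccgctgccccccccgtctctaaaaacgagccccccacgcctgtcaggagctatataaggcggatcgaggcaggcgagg

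Npas4 thus held core sites in both orientations, as Egr2 did, although its RPFs were higher after glu/gly, and the full sites of Btg2 and Arl4d began at positions -166 and -26 relative to the start. The CArG box of Egr2 began at position -72.

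Several IEGs had longer poly(A) tails after BDNF. Over the 3527 genes with 50 or more tags in both libraries, the median gene had a mean tail of 110.9 nt after BDNF and 107.1 nt after glu/gly, and tail differences are given relative to the median difference of 3.63 nt. A gene was called at 10 nt or more. Of all genes, 269 (7.63%) were called longer after BDNF and 233 (6.61%) longer after glu/gly, together 14.2%, and between the unstimulated and GFP cultures the share was also 14.2%. Taken as measured, not relative to the median difference, the split was 602 longer after BDNF and 105 longer after glu/gly. Of 22 IEGs, 9 were called longer after BDNF and none longer after glu/gly, with a median of 7.98 nt, and 18 of the 22 lay above the median gene. The 9 were the transcription factors Fos, Junb, Egr1 and Ier2 and the effectors Arc, Btg2, Arl4d, Nptx2 and Pnrc1. The share was 5 of 14 with 100 or more tags in both libraries, compared with 3.21% of genes, and 3 of 8 with 200 or more, compared with 1.59%. With median in place of mean tails, 13 of the 22 were called longer after BDNF and 1 longer after glu/gly, compared with 12.0% of genes longer after BDNF. The 3 with 200 or more tags were Fos, Egr1 and Junb, the most deeply tagged of the 9. The IEG list was chosen with earlier results of these data known, and the study itself names Pnrc1 for a longer tail after each stimulus. The share among IEGs is therefore not independent of these libraries.

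Btg2 had the largest difference of all 3527 genes. Its mean tail was 150.7 nt after BDNF, 115.9 nt after glu/gly and 121.0 nt without stimulation, 31.2 nt apart relative to the median gene, from 430 and 189 tags. Ier2 was the second, with 166.9 nt after BDNF and 133.8 nt after glu/gly, 29.5 nt apart, and 122.1 nt without stimulation. Arl4d, a small GTPase, was the fourth, with 167.6 and 136.6 nt, 27.3 nt apart. Hence 3 of the 6 largest differences in favor of BDNF were IEGs, the others being Sox11, Kcnip4 and Selenoi. Fos, with 882 and 510 tags, had 147.3 nt after BDNF, 130.3 nt after glu/gly and 120.0 nt without stimulation, 13.3 nt apart. Egr1 had 159.5, 138.7 and 123.5 nt in the same order, 17.2 nt apart, and Arc had 146.3, 132.5 and 119.7 nt, 10.2 nt apart. After glu/gly, the tails of Fos, Egr1 and Arc were also longer than without stimulation, and in each the BDNF culture had the longest. Dnajb1 had 151.3 nt after BDNF, 122.0 nt after glu/gly and 121.4 nt without stimulation, 25.6 nt apart, and ranked the ninth.

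By contrast, Gadd45g, whose 239 and 96 tags were 1.88-fold (1.48 to 2.41) higher after BDNF, had tails of 171.0 and 169.4 nt, -1.95 nt relative to the median gene. Nr4a1 had 156.7 and 156.3 nt. Of 6 MAPK feedback genes with enough tags, Dusp1 was called longer after BDNF, with 135.0 and 118.2 nt, and Dusp14 longer after glu/gly, with 112.2 and 120.0 nt. As measured, Dusp14 was under the 10 nt threshold, so its call came with centring. Of all genes, 7.63% were called longer after BDNF and 6.61% longer after glu/gly. Across the 22 IEGs, those more in favor of BDNF in tags tended to have longer tails after BDNF (Spearman 0.565, both values coming from the same 2 libraries), and no such relation was present across all 3527 genes (-0.048). The tails longest in favor of glu/gly included those of Rnf149, Bcl7a, Tceal6 and Dync1li2, none of them an IEG. Rnf149 had 93.3 nt after BDNF and 117.9 nt after glu/gly, from 79 and 62 tags. No interval could be given for a mean tail, because the spread of single tails was not used here. The SD of the difference fell with depth, from 8.59 nt at 50 to 100 tags in the library with fewer tags to 6.14 nt at 100 to 200 and 4.21 nt at 200 or more, and between the unstimulated and GFP cultures it was 7.93, 6.0 and 3.97 nt. Synthetic standards in the same libraries, 10 of 16 of which had 50 or more tags, differed by -13.1 to 4.37 nt with a median of -1.81 nt before centring. The one with most tags, 87471 and 87974, was longer after BDNF, at 44.3 and 39.9 nt, and the others of the 10 were shorter. Whether the 3.63 nt by which the median gene was longer after BDNF came from the libraries was not tested.

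Translational efficiency (TE), the log2 ratio of RPFs to RNA-seq reads in RPM, was compared for 4823 genes with 10 RPM or more in both RNA-seq libraries. The median gene was 0.19 higher after BDNF, and TE differences are given relative to it. A gene was called at 1.5-fold or more with an interval that excluded 0. Of these genes, 243 (5.04%) had a higher TE after BDNF and 157 (3.26%) a higher TE after glu/gly, together 8.29%, and between the unstimulated and GFP cultures 8.44% were called. The SD of the difference was 0.388, of which counting error alone gave 0.317, and it was 0.383 for the pair without a stimulus. Of 19 IEGs, Homer1 was called higher after BDNF and Npas4 higher after glu/gly. Arc, Fos and Junb, with differences of -0.16 (-0.49 to 0.18), 0.02 (-0.27 to 0.31) and -0.21 (-0.51 to 0.09), were not called. Hence, with reads as the mRNA level, no difference between their RPFs and their mRNA was resolved. With tags, the interval of Fos lay below that of its RPFs, whereas the tag and RPF intervals of Arc and of Junb overlapped.

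Homer1, a scaffold that links metabotropic glutamate receptors to intracellular calcium stores, had 75 and 99 reads, a fold of 0.95 (0.694 to 1.30), and 263 and 132 RPFs, a fold of 1.52 (1.22 to 1.88). Its TE difference was 0.70 (0.17 to 1.22), and with tags in place of RNA-seq reads it was 0.79 (0.23 to 1.35), called in both. For Npas4 the TE difference was -1.28 (-1.71 to -0.86), and with tags it was -0.39 (-0.99 to 0.20), which was not called. Btg2 was called with tags only, at 0.62 (0.23 to 1.00), compared with 0.20 (-0.48 to 0.87) with reads. Taking tags as the mRNA level was chosen after the data were seen. With it, 288 of 8164 genes (3.53%) were higher after BDNF and 256 (3.14%) higher after glu/gly, together 6.66%.

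The largest TE differences depended on the assay of the mRNA. The 6 largest in favor of BDNF were Bsn, Celsr2, Smap2, Pcdh1, Prrc2a and Pclo, between 1.43 and 2.53. Bsn and Pclo encode bassoon and piccolo, giant scaffolds of the presynaptic active zone. Bsn had 26 RNA-seq reads after BDNF and 179 after glu/gly, with 44 without stimulation, a fold of 5.49 (3.62 to 8.63) in favor of glu/gly. Its RPFs, 1728 and 1268, were at 1.04 (0.963 to 1.12) and its tags, 128 and 88, at 1.10 (0.832 to 1.46) for BDNF over glu/gly. The TE difference of Bsn was 2.53 (1.93 to 3.13) with reads and -0.10 (-0.50 to 0.31) with tags. For Celsr2 the values were 1.76 and 0.06, for Smap2 1.56 and -0.07, for Prrc2a 1.45 and -0.11 and for Pclo 1.43 and 0.21, none of which was called with tags. Apart from Pcdh1, for which no tag value is given, these TE differences thus lay in the RNA-seq reads and were absent or small with tags. The genes were picked by values that used the reads, the shallower assay. Over the genes compared, the medians were 52 and 64 reads against 307 and 232 RPFs after BDNF and glu/gly. Smaller values with tags were therefore likely in advance. For Bsn, the counting intervals with reads (1.93 to 3.13) and with tags (-0.50 to 0.31) did not overlap. What part counting error and the assay each had in the smaller values was not tested. Over all 243 genes with a higher TE after BDNF, the median log2 difference was -0.67 in RNA-seq, 0.13 in RPFs and 0.01 in tags, and with tags 18 of 212 were called in the same direction. Over the 157 with a higher TE after glu/gly, the medians were 0.54, -0.29 and 0.00, and 20 of 145 were called. The 6 largest of these were Gmcl1, Npas4, Lemd2, Socs7, Vopp1 and Mcat. Of them, Lemd2, Socs7 and Mcat kept differences of -0.89 (-1.65 to -0.12), -0.86 (-1.56 to -0.16) and -1.19 (-2.23 to -0.14) with tags. No relation of TE to tails was present, with a Spearman correlation of -0.005 between the TE and tail differences of 2725 genes, which share the same cultures.

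The RNA-seq calls in favor of glu/gly were mostly long genes. Their median CDS was 3163.5 nt, compared with 1542 nt for all tested genes and 1029 nt for the genes called higher after BDNF, and 87 of the 148 were in the longest quartile, at 4.36% of its genes. They included Map1a and Map1b, microtubule-associated proteins, and the postsynaptic scaffolds Shank1 and Shank2 (Map1a was named after its values were seen). Map1b had 537 reads after BDNF, 1351 after glu/gly and 551 without stimulation, a fold of 2.01 (1.81 to 2.22) in favor of glu/gly (under 2 with centring within quartiles of CDS length), whereas its 26408 and 18736 RPFs gave 1.07 (1.05 to 1.09) and its 1120 and 768 tags 1.10 (1.00 to 1.21) in favor of BDNF. In Bsn, Map1b, Pclo and Grin2b, the glu/gly culture was the one that stood apart, and the BDNF culture was closer to the unstimulated one. For Pclo the reads were 47 after BDNF, 157 after glu/gly and 32 without stimulation, and for Grin2b 105, 323 and 120. None of the 10 largest RNA-seq folds in favor of glu/gly, which ran from 4.30 for Map3k9 to 6.64 (2.03 to 34.4) for Pcdhgc5 and included Kmt2d and Sema6a, was called in RPFs or, where tested, in tags, and of all 148, none was called in RPFs and 2 in tags, AW551984 and Fat4 (both named after their values were seen).

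Across all genes the RNA-seq difference fell with CDS length, with a Spearman correlation of -0.225 over 7997 genes. It was -0.135 over 11112 genes in RPFs and 0.040 over 8491 in tags. The median log2 difference in RNA-seq went from 0.12 in the shortest quartile to -0.11 in the longest. Genes of the longest quartile took 39.8% of the RNA-seq reads of the glu/gly culture, compared with 36.3% after BDNF, 35.2% without stimulation and 36.5% in the GFP culture, whereas their share of tags was 17.7% after either stimulus. With GC content of the CDS the RNA-seq correlation was 0.008. What gave long coding sequences a larger share of the RNA-seq library of the glu/gly culture was not tested.

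In 2 gene lists, most TE calls made with RNA-seq reads were not made with tags as the mRNA level. Of 23 dendritic mRNAs tested in RNA-seq, Arc was called higher after BDNF and 4 were called higher after glu/gly, among them Map1b, Shank1 and Shank2. For TE, 7 of 22 were called higher after BDNF (among them Camk2a, Cnksr2, Homer1, Map1b, Shank1 and Shank3), but with tags as the mRNA level 2 of 21 were, Homer1 and Nrgn. Of all genes, 5.04% were called higher after BDNF with reads and 3.53% with tags. Camk2a, the alpha subunit of calcium/calmodulin-dependent kinase II, went from 1.16 (0.74 to 1.59) with reads to 0.05 (-0.12 to 0.21) with tags. Of elongation and initiation factors, none of 27 was called in RNA-seq and 3 of 21 had a higher TE after BDNF (Eif4g3, Eif5 and Pabpc1), whereas with tags Eif4g3 was at 0.19 (-0.09 to 0.48), Eif5 at 0.51 (0.08 to 0.94) and Pabpc1 at 0.02 (-0.89 to 0.93). With tags 2 of 28 were called higher after BDNF, Eif3f and Eif3h, compared with 3.53% of all genes. The median was 0.18, with 23 above 0, compared with 0.08 with reads.

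Footprints on ribosomal protein mRNAs, which carry the 5′ terminal oligopyrimidine motif through which mTOR controls their translation, were slightly more frequent after BDNF. Of 77 cytosolic ribosomal protein genes, 35 were tested in RPFs. The log2 difference was above 0 in 31, with a median of 0.29 compared with -0.01 for all genes. Of the 35, 4 were called higher after BDNF (Rpl18, Rpl35a, Rps18 and Rps4x), compared with 0.878% of all genes. None of the 4 had more than 72 RPFs after BDNF. Those with most reads differed by less. Rps3 had 1090 RPFs after BDNF and 630 after glu/gly, a fold of 1.32 (1.19 to 1.45), Rpl4 had 1114 and 706, a fold of 1.20 (1.09 to 1.32), and Rpl8 had 1235 and 794, a fold of 1.18 (1.08 to 1.29). Over the ribosomal protein genes tested, the median was 0.18 in RNA-seq, with 23 of 35 above 0, and -0.15 in tags, with 14 of 46 above 0. With reads as the mRNA level the median TE difference was 0.10 and 2 of 19 were called (Rpl32 and Rps15), and with tags it was 0.54 and 11 of 33 were called, all higher after BDNF. The shares of all genes called higher after BDNF were 5.04% with reads and 3.53% with tags. The size of the difference thus depended on the assay of the mRNA, and it was above 0 with both. Ribosomal protein genes have short coding sequences and many pseudogene copies that can share their reads. In the shortest quartile of all genes the median was 0.07 in RPFs and 0.10 in RPFs per tag. Elongation factors, which carry the same motif, included Eef1a1, with 3948 and 2349 RPFs, a fold of 1.28 (1.21 to 1.35), and Eef2, with 6261 and 4435, a fold of 1.07 (1.03 to 1.12).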

How the data were processed

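For RNA-seq and RPFs, the deposited values were read counts per gene, with RPM, which the authors made by aligning reads with STAR 2.4.2 to mm10 and keeping those on the open reading frame, without its first 50 nt, of 1 RefSeq transcript per gene (bedtools was also named in the processing notes). The authors' RPM total was larger than the reads on genes, which were 21.9% and 23.4% of it in the RNA-seq libraries of the BDNF and glu/gly cultures, and 64.5% and 59.3% in RPFs. For TAIL-seq, the authors aligned tags with STAR 2.5.4b, counted them at annotated 3′ ends and called tails with a 5-state hidden Markov model, and the deposited tag counts and mean and median tail lengths in nt were used. The deposited log2 TE values, ratios made by the authors, served as an alternative, and 58 other columns of that table were not used. Of 15789 accessions, 15668 matched a symbol.

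Folds were ratios of counts per count on genes, with conditional 95% Clopper-Pearson intervals. TE intervals were 95% normal intervals from the 4 counts. Synthetic standards were left out of tag totals. Groups came from the labels. With 1 library per group, no test was made. Scripts were tested on simulated data. The members and gene lists were chosen with earlier results of these data known. Named genes were the 10 largest called RNA-seq folds each way, the 6 largest called TE and tail differences each way, called IEG and MAPK feedback genes, the 4 members with most reads and called members of the other lists, and Npas4, Arc, Fos and Pnrc1, and some of the genes so named are not reported here. Alternatives were other scaling factors (edgeR 4.0.16, DESeq2 1.42.0, in R 4.3.3), count minimums, folds and tail thresholds, and, chosen after the data were seen, tags as the mRNA level, centring by CDS-length quartile and median tails. Python 3.11.15 with numpy 2.4.6, pandas 2.3.3, scipy 1.17.1 and matplotlib 3.10.9 was used.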

Additional observations from a re-analysis of the deposited data

How the results depend on the processing

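No paired analysis was possible because each group had 1 library per assay, and no replicate could be left out. The number of called genes was set by the thresholds. In RNA-seq, 262 became 42 with 100 or more counts summed, 529 at 1.5-fold, and 109 at 2-fold with no interval and 50 counts. In RPFs, 174 became 9, 531 and 51 under the same changes, and in tags 122 became 3, 312 and 25. TE calls, 400, became 90 at 30 RPM and 88 at 2-fold, and at 30 RPM the calls were 1 for glutamate receptors and calcium signaling, 0 for ribosomal proteins, 0 for elongation and initiation factors and 4 for dendritic mRNAs. Tail calls, 502, became 115 at 100 tags, 17 at 200 tags, 1514 at 5 nt and 848 with median tails. With tags as the mRNA level, the TE differences of Bsn (-0.10), Cnksr2 (-0.21), Map1b (-0.053), Prrc2a (-0.11) and Smap2 (-0.068) changed sign. Of the other counts of calls, 56 stayed within 1.5 times, and of the values of named genes 784 kept their direction and moved little, although 38 of these lost their call, and 17 moved. In all, 52 calls of named genes were lost, 17 with tags as the mRNA level, 10 with centring within quartiles of CDS length, 9 with a TE threshold of 2-fold and 7 with the deposited RPM. Of the IEGs, 11 remained called higher after BDNF in RNA-seq with TMM and with DESeq2 factors, and 9 with the deposited RPM, which moved the median gene to -0.06 in RNA-seq and 0.11 in RPFs. Without centring, 602 tails were longer after BDNF and 105 longer after glu/gly. Depth limited RNA-seq most, with a median of 15.5 and 18 reads per detected gene in the BDNF and glu/gly libraries, against 72 and 57 RPFs.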

Other observations

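Tail calls in the signaling lists stayed near or below the share among all genes. Of 14 genes of BDNF signaling with enough tags, 2 were called, Braf and Pik3r1, and none of 19 of glutamate receptors and calcium signaling was, compared with 14.2% of all genes. Braf, a kinase that activates MEK, had 137.2 nt after BDNF, 110.1 nt after glu/gly and 140.1 nt without stimulation, from 68 and 53 tags. Relative to the median gene it was 23.5 nt longer after BDNF, although its tags were at similar levels. Bsn had 146.9 nt after BDNF, 127.1 nt after glu/gly and 128.4 nt without stimulation, 16.3 nt longer after BDNF. Pik3r1, the regulatory subunit of PI3 kinase, ran the other way, with 106.6 and 116.5 nt, -13.6 nt relative to the median gene, a call lost without centring. Atf4, whose translation is controlled by upstream open reading frames, had 250 and 200 reads but 94 and 72 RPFs, and its TE difference was -0.64 (-1.15 to -0.12) with reads and -0.31 (-0.79 to 0.17) with tags.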
